A study of Mus musculus with 9 samples.

Results

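The 9 genes described here, Ccr7, S1pr1, S1pr4, Cxcr5, Cxcr3, Cxcr4, Cxcl12, Klf2 and Cd69, encode receptors, 1 ligand and 2 regulators of lymphocyte homing and egress. They were chosen by name for these roles, with earlier results of these data known, out of 20926 genes in the expression table. All 9 passed the filter on low values. Naive lymphocytes circulate between blood and lymphoid organs. They enter lymph nodes under the control of adhesion molecules and of CCR7, B cells are drawn to follicles by CXCR5, and lymphocytes leave again by following sphingosine 1-phosphate (S1P), which is sensed by S1PR1. KLF2 is a transcription factor of quiescent lymphocytes that drives S1pr1, and CD69, which appears early on activated lymphocytes, binds S1PR1 and removes it from the cell surface.

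RNA of the blood of male DBA/1 mice, which were 7 weeks old at the start, was sequenced in 9 libraries, 3 per group, and the groups are named Ctrl, CIA and CIA+THz. Ctrl mice were controls without irradiation, and whether they received adjuvant is not stated. CIA mice had collagen-induced arthritis, a model of rheumatoid arthritis started with chick type II collagen in Freund's adjuvant, and received no irradiation. In CIA+THz mice, arthritis was induced likewise and the swollen ankle joints were then exposed to 0.1 THz radiation under isoflurane, daily for 30 min over 14 days. No anesthesia of the other groups is described, so radiation and anesthesia cannot be told apart. Whether each library came from 1 mouse is not stated in the labels, and the p-values measure only the spread between these libraries.

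Values are FPKM (fragment counts divided by the length of the transcript and the size of the library), rescaled here with 1 factor per library. The factor was 0.847 to 1.06 in Ctrl and CIA and 1.10 to 1.24 in CIA+THz. The choice matters for the members, because without it CIA+THz moves up by 0.28 against CIA and by 0.31 against Ctrl on the log2 scale. Between 11801 and 12807 genes were above 0 in a library, and depth is unknown. The libraries are labelled blood leukocytes, but Alas2, a gene of red cell precursors, took 11.4% to 16.7% of the summed FPKM. A member can differ in such a mixture through fewer cells of a type or through less RNA per cell, and these cannot be told apart.

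Promoter sequences from RefSeq (GRCm38.p6) matched 5 of the 9 members, S1pr4, Cxcr3, Cxcr4, Cxcl12 and Klf2, and those of Ccr7, S1pr1, Cxcr5 and Cd69 were not analysed here. A pair is shown, that of the transcription factor of the group and that of the member with the widest difference between groups. Each holds the bases from 250 to 31 before the start, at chr8:72318812-72319031 (plus strand) for Klf2 and at chr6:117168285-117168504 (plus strand) for Cxcl12, with GC boxes (GGGCGG, read on both strands), the sequence bound by Sp and KLF factors, in capitals.
Klf2: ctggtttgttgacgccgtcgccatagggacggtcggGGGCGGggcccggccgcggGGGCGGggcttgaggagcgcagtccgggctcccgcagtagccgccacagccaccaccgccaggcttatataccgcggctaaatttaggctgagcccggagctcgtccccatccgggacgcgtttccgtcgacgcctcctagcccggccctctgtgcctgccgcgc
Cxcl12: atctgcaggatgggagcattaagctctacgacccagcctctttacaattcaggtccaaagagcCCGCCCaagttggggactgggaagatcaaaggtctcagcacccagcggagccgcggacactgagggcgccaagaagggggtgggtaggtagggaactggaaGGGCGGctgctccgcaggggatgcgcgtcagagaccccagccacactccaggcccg

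The windows of Klf2 and Cxcl12 each held 2 GC boxes, and that of Cxcr4 held 3. Among 32851 promoter windows of the same length, 28.5% held at least 1. In the windows of Cxcr3 and S1pr4 none was found. These matches describe the letters only.

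The members spanned a wide range of levels in blood. Averaged over the 9 libraries, S1pr4 (a receptor for S1P on leukocytes) stood at 153 rescaled FPKM, Klf2 at 143, Ccr7 at 142 and Cxcr4 at 97.5, above 94.7% of the 12366 genes tested or more. S1pr1 (31.1), Cd69 (28.6) and Cxcr5 (23.7) formed a middle tier, above 81.5% of the genes or more. Cxcr3, a receptor of effector T cells and NK cells, was at 2.94 and Cxcl12, the ligand of CXCR4, at 1.11. In Ctrl, the libraries of Klf2, S1pr4 and Ccr7 overlapped in level, as did those of Cd69 and S1pr1. The order of means differed between groups, and Ccr7 was first in CIA+THz, where its libraries overlapped those of S1pr4.

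**Figure D1:**
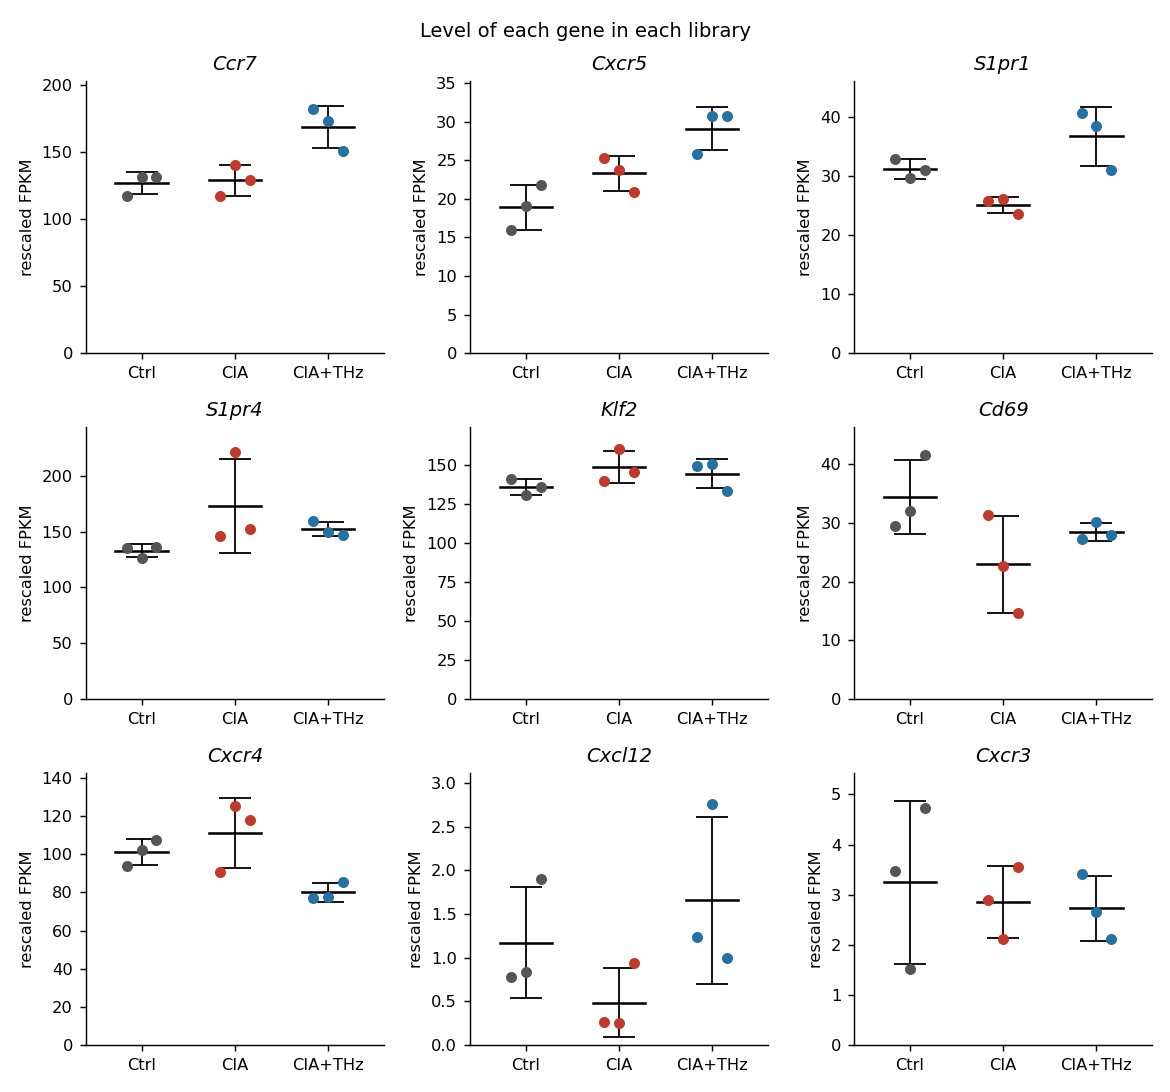
Rescaled FPKM (vertical axis, linear from 0) of the 9 genes in every library, by group. Points are libraries, the long bar is the mean and the whiskers are 1 SD. The CIA+THz libraries of Ccr7 lie at 151 or above and all others at 140 or below, and the CIA libraries of S1pr1 lie below all others.

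CCR7 brings naive T cells, B cells and dendritic cells into lymph nodes. Ccr7 (chromosome 11 of GRCm38, 99144196 to 99155077, minus strand) was at 118, 132 and 132 rescaled FPKM in the 3 Ctrl libraries, 118, 140 and 129 in CIA, and 182, 173 and 151 in CIA+THz. The Ctrl and CIA libraries overlapped, and every CIA+THz library lay above both. Ccr7 was 0.39 higher in CIA+THz than in CIA on the log2 scale (SE 0.11, 95% interval 0.13 to 0.65), a fold of 1.31, with an adjusted p of 0.261 by limma. Against Ctrl the difference was 0.41 (SE 0.11, adjusted p 0.141 by limma). CIA and Ctrl differed by 0.02, with an interval of -0.25 to 0.29.

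CXCR5 directs B cells and follicular helper T cells to follicles. Cxcr5 (chromosome 9, 44511787 to 44561877, minus strand) was at 15.9, 19.0 and 21.8 rescaled FPKM in Ctrl, 25.2, 23.8 and 20.9 in CIA, and 25.8, 30.7 and 30.7 in CIA+THz. The CIA+THz libraries lay above all others, and Ctrl and CIA overlapped. Against Ctrl, Cxcr5 was 0.62 higher in CIA+THz on the log2 scale (SE 0.15, interval 0.28 to 0.97, adjusted p 0.127 by limma), a fold of 1.54. Against CIA it was 0.32 higher (SE 0.12, interval 0.03 to 0.60, adjusted p 0.339 by limma), and the unadjusted p was above 0.05 without CIA replicate 2 or 3 or without CIA+THz replicate 2 or 3. Cxcr5 overlaps Bcl9l on the other strand, and whether the counting used strand is not given in the sources used here.

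S1PR1 lets lymphocytes leave lymphoid organs toward the S1P of blood and lymph. S1pr1 (chromosome 3, 115710433 to 115715072, minus strand) was at 33.0, 29.7 and 31.1 rescaled FPKM in Ctrl, 25.8, 26.1 and 23.6 in CIA, and 40.7, 38.5 and 31.1 in CIA+THz. All 3 CIA libraries were below every other library, whereas CIA+THz replicate 3 lay within the Ctrl range. In CIA the level was 0.31 lower than in Ctrl on the log2 scale (SE 0.11, interval -0.58 to -0.05), with an adjusted p of 0.230 by limma. CIA+THz was 0.54 higher than CIA (SE 0.13, interval 0.24 to 0.84, adjusted p 0.213 by limma), a fold of 1.45. The difference of 0.22 between CIA+THz and Ctrl had an interval of -0.075 to 0.52. The lower value in CIA did not reach an unadjusted p of 0.05 without Ctrl replicate 1 or without CIA replicate 3, and neither did it with FPKM as deposited (-0.28, adjusted p 0.405 by limma).

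S1PR4 is a further S1P receptor, found on lymphocytes and myeloid cells. Levels of S1pr4 (chromosome 10, 81497747 to 81500132, minus strand) were 135, 126 and 137 rescaled FPKM in Ctrl, 146, 221 and 152 in CIA, and 159, 150 and 147 in CIA+THz. Every CIA and CIA+THz library was above the Ctrl libraries, and CIA replicate 2 stood highest. The difference between CIA and Ctrl was 0.35 on the log2 scale (SE 0.17, interval -0.05 to 0.76, adjusted p 0.338 by limma), and it was 0.17 without CIA replicate 2. CIA+THz against CIA was -0.16 (SE 0.17), and 0.12 with FPKM as deposited.

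Klf2 (chromosome 8, 72319033 to 72321656, plus strand) had the smallest spread over the 9 libraries of all members, with an RMS of 0.0876 around its mean on the log2 scale. It was at 141, 131 and 136 rescaled FPKM in Ctrl, 140, 160 and 145 in CIA, and 149, 150.3 and 133 in CIA+THz, and the 3 groups overlapped. CIA+THz against CIA was -0.04 on the log2 scale with an interval of -0.26 to 0.19, and 0.24 with FPKM as deposited. CIA against Ctrl was 0.13 with an interval of -0.12 to 0.37.

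Cd69 (chromosome 6, 129267325 to 129275436, minus strand) was at 29.5, 32.1 and 41.5 rescaled FPKM in Ctrl, 31.3, 22.7 and 14.7 in CIA, and 27.2, 30.1 and 27.9 in CIA+THz. The CIA libraries spread more widely than either other group and overlapped both. CIA against Ctrl was -0.63 on the log2 scale (SE 0.28, interval -1.29 to 0.02, adjusted p 0.300 by limma). It was past both limits used for a pair of groups only without CIA replicate 1, where it was -0.89. CIA+THz against CIA was 0.37 (SE 0.26).

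CXCR4 holds developing lymphocytes and neutrophils in the bone marrow through CXCL12. Cxcr4 (chromosome 1, 128588199 to 128592293, minus strand) was at 94.0, 102 and 108 rescaled FPKM in Ctrl, 90.6, 125 and 118 in CIA, and 76.9, 77.5 and 85.6 in CIA+THz. Each CIA+THz library lay below all libraries of the other groups, which overlapped. Cxcr4 was 0.46 lower in CIA+THz than in CIA, at -0.46 on the log2 scale (SE 0.14, interval -0.79 to -0.14, adjusted p 0.265 by limma), and the difference was -0.19 with FPKM as deposited (adjusted p 0.514 by limma). Against Ctrl it was -0.34 (SE 0.10, adjusted p 0.159 by limma), and -0.03 with FPKM as deposited. Neutrophils and monocytes also express Cxcr4, and their marker lists were lower as well in CIA+THz against CIA, but not in every comparison. All 12 neutrophil and 11 of 12 monocyte genes had lower levels in CIA+THz than in CIA, 10 and 9 of them at an unadjusted p under 0.05. The summed neutrophil level was 14598 to 19156 rescaled FPKM in CIA and 10706 to 12140 in CIA+THz, and that of monocytes 5458 to 6031 and 3609 to 3902. Most of each sum was 1 gene. S100a9 was at 11212 to 14496 in CIA and 8096 to 9274 in CIA+THz, and Lyz2 at 4436 to 4916 and 2851 to 3078. All 9 platelet genes were also lower, 6 of them at an unadjusted p under 0.05, with a median of -0.41. Their summed level was 4284 to 5485 in CIA and 3626 to 4392 in CIA+THz. These counts are for rescaled FPKM and were not taken with FPKM as deposited, where CIA+THz lies 0.28 higher against CIA. There the platelet gene Ppbp was wholly higher in CIA+THz (2251, 2484 and 2335) than in CIA (2185, 2095 and 2055). Against Ctrl, 9 of 12 monocyte genes were higher in CIA+THz, with a median of 0.65, while 8 of 12 neutrophil and 8 of 9 platelet genes were lower. The neutrophil list went both ways, with Camp (2.83), Ltf (2.14) and Ngp (1.17) higher and 6 genes lower at an unadjusted p under 0.05. In CIA against Ctrl the monocyte median was 1.04, beside 0.12 for Cxcr4. The neutrophil median was -0.03 there, with 6 genes higher and 6 lower, and the platelet median was 0.01. The part of these cells in the Cxcr4 values was not tested.

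Cxcl12 (chromosome 6, 117168535 to 117181367, plus strand) encodes the ligand of CXCR4, which is made chiefly by stromal and endothelial cells. It was at 0.776, 0.836 and 1.90 rescaled FPKM in Ctrl, 0.262, 0.251 and 0.943 in CIA, and 1.23, 2.76 and 0.992 in CIA+THz. Every CIA+THz library lay above the CIA libraries, by a narrow margin over CIA replicate 3, and Ctrl overlapped both. CIA+THz was 1.66 higher than CIA on the log2 scale (SE 0.58, interval 0.27 to 3.04, adjusted p 0.314 by limma). It no longer passed without CIA replicate 1 or 2 or without CIA+THz replicate 1 or 2. CIA against Ctrl was -1.21 (SE 0.60, adjusted p 0.348 by limma). Of 7 stromal and endothelial markers 4 were tested, with a median difference of 0.73 in CIA+THz against CIA and 0 of 4 at an unadjusted p under 0.05. Lepr was listed at 0 in all 9 libraries and Pdgfra in those of Ctrl and CIA+THz, and the summed level of the list was 172 to 249 rescaled FPKM for Ctrl, 137 to 205 for CIA and 149 to 178 for CIA+THz. Nearly all of that sum was Pecam1, which platelets and leukocytes also express, while Cdh5, Col1a2 and Pdgfrb were at 0.478 rescaled FPKM or below in every library.

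Cxcr3 (chromosome X, 101731535 to 101734269, minus strand) was at 3.47, 1.52 and 4.74 rescaled FPKM in Ctrl, 2.89, 2.11 and 3.56 in CIA, and 3.41, 2.65 and 2.11 in CIA+THz. The groups overlapped in every comparison. CIA+THz against CIA was -0.06 on the log2 scale with an interval of -0.74 to 0.62, and it was 0.21 with FPKM as deposited. CIA against Ctrl was -0.07 with an interval of -1.12 to 0.98.

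In limma's F-test across the 3 groups, the unadjusted p was under 0.05 for 5 of the 9 members (Ccr7, S1pr1, Cxcr5, Cxcr4 and Cxcl12), against 21.3% of all 12366 genes tested. None had an adjusted p under 0.05, against 2.53% of all genes, and the adjusted p of those 5 lay between 0.0919 and 0.210 by limma. With FPKM as deposited the adjusted p by limma was 0.0398 for Ccr7, 0.0479 for S1pr1 and 0.0347 for Cxcr5, and S1pr4, Klf2 and Cd69 also had an unadjusted p under 0.05, whereas Cxcr4 did not (adjusted p 0.638 by limma). The criterion for a pair of groups was a p under 0.05 before adjustment together with a log2 difference beyond 0.67. For CIA against Ctrl, 0 of 9 members met it, against 9.04% of all genes, and 1, S1pr1, was lower at an unadjusted p under 0.05, against 8.45% of all genes in that direction, while 0 were higher, against 8.85%. For CIA+THz against CIA, Cxcl12 alone met the criterion, against 4.54% of all genes. At an unadjusted p under 0.05, 4 members were higher (Ccr7, S1pr1, Cxcr5 and Cxcl12) against 5.89% of all genes, and 1, Cxcr4, was lower against 7.33%. For CIA+THz against Ctrl, 0 of 9 members met the criterion, against 7.88% of all genes, while 2 were higher (Ccr7 and Cxcr5) and 1 lower (Cxcr4) at an unadjusted p under 0.05, against 8.39% and 9.69%. Because the members were chosen with earlier results of these data known, these counts do not test them as a set. No member had an adjusted p under 0.05 in any pair by limma. Over all genes the adjusted counts were 0.154%, 0% and 0.105% in the same order of pairs, the middle one with 1634 genes at an unadjusted p under 0.05.

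For CIA against Ctrl, the median difference of the members was 0.02 on the log2 scale. It was 0.32 between CIA+THz and CIA and 0.20 between CIA+THz and Ctrl, beside -0.01, 0.03 and 0.04 over all genes. These comparisons share groups, so their values are given side by side only. The groups did not overlap for S1pr1 (below) and S1pr4 (above) in CIA against Ctrl, where 11.8% of all genes lay wholly below and 11.8% wholly above. In CIA+THz against CIA, Ccr7, S1pr1, Cxcr5 and Cxcl12 lay wholly above, as did 9.38% of all genes, and Cxcr4 wholly below, as did 10.2%. In CIA+THz against Ctrl, Ccr7, S1pr4 and Cxcr5 lay wholly above, as did 11.9% of all genes, and Cxcr4 wholly below, as did 12%. With FPKM as deposited, S1pr1 (0.81) and Cxcl12 (1.90) met the criterion in CIA+THz against CIA, and Ccr7 (0.71) and Cxcr5 (0.93) in CIA+THz against Ctrl. All 561 genes past the criterion in CIA+THz against CIA split into 363 higher and 198 lower. Without rescaling, the split was 1126 higher to 66 lower.

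**Figure D2:**
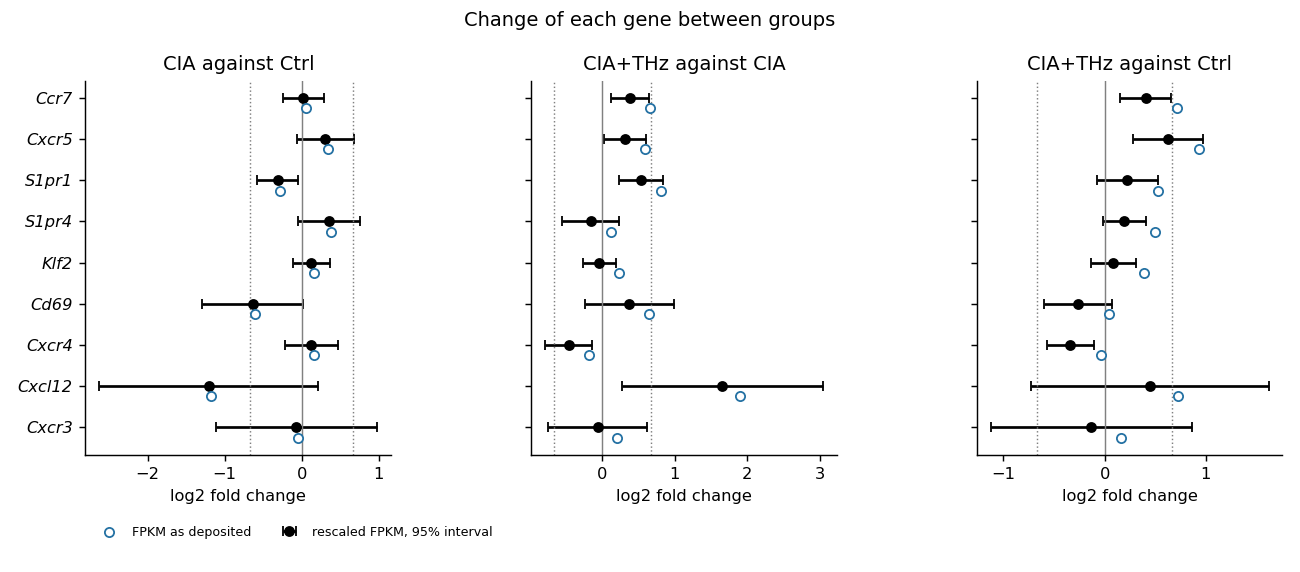
Log2 fold change (horizontal axis) of each gene in the 3 comparisons. Filled points are rescaled FPKM with their 95% intervals by limma, open points are FPKM as deposited, and dotted lines mark 0.67 in either direction. Cxcl12 has the widest intervals, and with FPKM as deposited S1pr4, Cxcr3 and Klf2 in CIA+THz against CIA and Cxcr3 and Cd69 in CIA+THz against Ctrl change sign.

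The lymphocyte marker lists differed between groups beside the receptors, and their part in the values above was not tested. All 12 tested genes of the T cell list (Cd3e, Cd4, Lck and others) had higher levels in CIA+THz than in CIA, with a median difference of 0.33 and 6 at an unadjusted p under 0.05, and all 12 had lower levels in CIA than in Ctrl, with a median of -0.29 and 3 at an unadjusted p under 0.05. Their summed level was 399 to 481 rescaled FPKM for Ctrl, 350 to 395 for CIA and 416 to 564 for CIA+THz. All 10 B cell genes were higher in CIA+THz than in Ctrl, with a median of 0.55 and 8 at an unadjusted p under 0.05, and 8 of 10 were higher than in CIA. Their summed level was 483 to 575 for Ctrl, 531 to 676 for CIA and 626 to 815 for CIA+THz.

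Levels relative to the T cell and B cell lists do not depend on the factor per library, apart from the pseudocount. Each is the member's log2 level minus the mean log2 level of the list in the same library, and with 3 libraries against 3 an exact permutation test (two-sided) cannot go below p = 0.1. Relative to the B cell list, Cxcr5 was at -0.72 ± 0.08 (SD, n = 3) for Ctrl, -0.67 ± 0.11 for CIA and -0.65 ± 0.04 for CIA+THz. The groups overlapped in all 3 comparisons, and the differences were 0.02 between CIA+THz and CIA (exact permutation p = 0.9), 0.06 between CIA and Ctrl (exact permutation p = 0.5) and 0.08 between CIA+THz and Ctrl (exact permutation p = 0.2). Relative to the T cell list, Ccr7 was at 1.91 ± 0.08 for Ctrl, 2.22 ± 0.20 for CIA and 2.28 ± 0.07 for CIA+THz. The difference between CIA+THz and CIA was then 0.06 (exact permutation p = 0.8), and that between CIA+THz and Ctrl 0.37, without overlap (exact permutation p = 0.1). CCR7 is also made by B cells, and relative to their list the groups overlapped in all 3 comparisons.

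S1pr1 relative to the T cell list was at -0.11 ± 0.25 for Ctrl, -0.13 ± 0.06 for CIA and 0.08 ± 0.07 for CIA+THz. It stood 0.20 above CIA in CIA+THz without overlap (exact permutation p = 0.1), whereas CIA and Ctrl differed by -0.02 (exact permutation p = 1). Relative to the B cell list the picture was another, with CIA wholly below Ctrl by -0.56 (exact permutation p = 0.1) and CIA+THz overlapping both. Cxcr4 relative to the T cell list was at 2.00 ± 0.33 for CIA against 1.21 ± 0.28 for CIA+THz, a difference of -0.80 without overlap (exact permutation p = 0.1), and relative to the B cell list the difference was -0.76. Klf2 relative to the T cell list was at 2.01 ± 0.23 for Ctrl, 2.43 ± 0.16 for CIA and 2.05 ± 0.13 for CIA+THz, with CIA+THz below CIA by -0.37 (exact permutation p = 0.1). S1pr4 relative to the T cell list was at 1.97 ± 0.21, 2.62 ± 0.36 and 2.13 ± 0.14 in the same order of groups. Relative to the B cell list, Klf2 was at 2.12, 2.00 and 1.66 and S1pr4 at 2.09, 2.20 and 1.74, and for both genes CIA+THz overlapped CIA. Klf2 itself differed by only -0.04 between CIA+THz and CIA, beside a median of 0.33 for the T cell list. Levels per T cell were not measured.

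**Figure D3:**
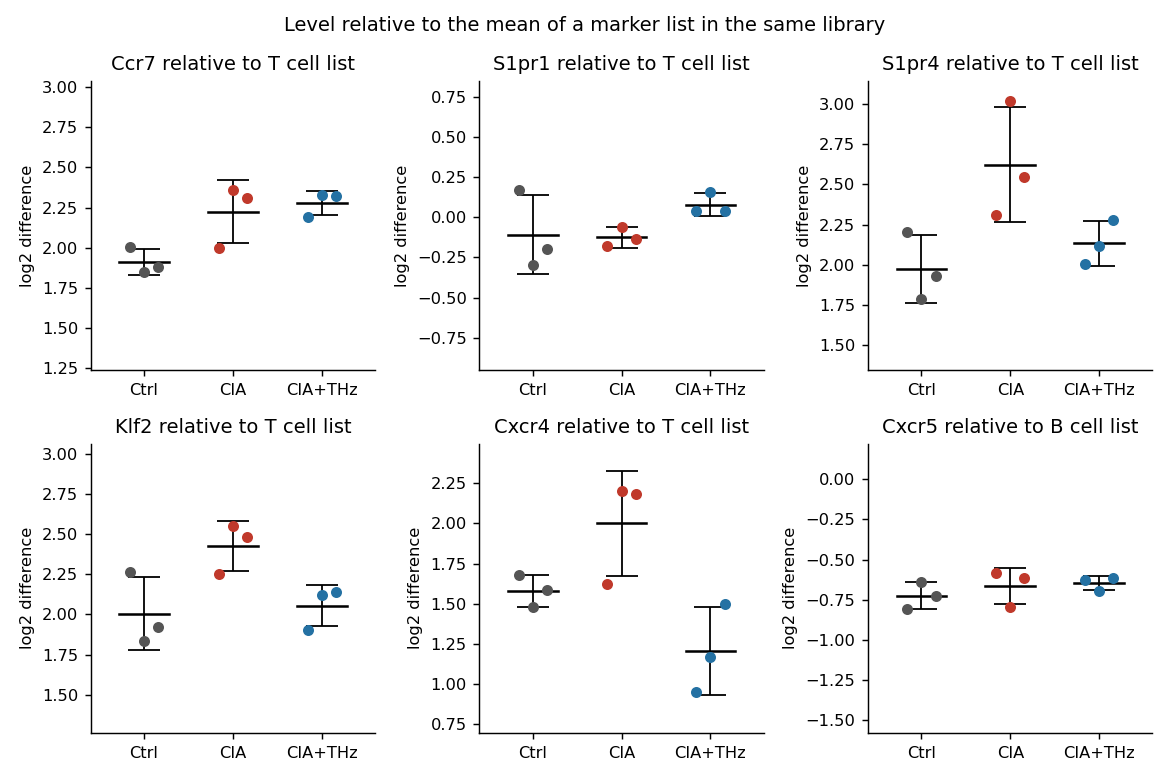
Log2 level of a gene minus the mean log2 level of the T cell or B cell list in the same library (vertical axis), by group. Points are libraries, bars are means and whiskers 1 SD. Cxcr5 relative to the B cell list stays between -0.81 and -0.58 in all 9 libraries, whereas Cxcr4 relative to the T cell list is lower in every CIA+THz library than in CIA.

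Pairs of members within a library are likewise free of the factor. The pairs named here were chosen after their values were seen, out of 36. Lack of overlap was not confined to the pairs named. Among the 36, libraries of Ctrl and CIA were apart in 10 pairs. Those of CIA+THz stood clear of CIA in 12 pairs and clear of Ctrl in 12. Each member recurs in several pairs, so 1 displaced member can separate many of them and the pairs are not independent. Pairs of other genes were not counted, so whether these counts are high or low is unknown. S1pr1 minus S1pr4 was at -2.08 for Ctrl, -2.75 for CIA and -2.05 for CIA+THz on the log2 scale, and every CIA library was below all libraries of the other groups. S1pr1 minus Klf2, a receptor and a factor that drives it, was at -2.11, -2.55 and -1.98 in the same order, again with CIA lowest and no overlap. Ccr7 minus Cxcr4 was at 0.33 for Ctrl, 0.22 for CIA and 1.07 for CIA+THz, where all 3 libraries lay above the other 6. S1pr1 minus Cd69, the receptor and its partner that removes it from the surface, overlapped in all 3 comparisons.

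**Figure D4:**
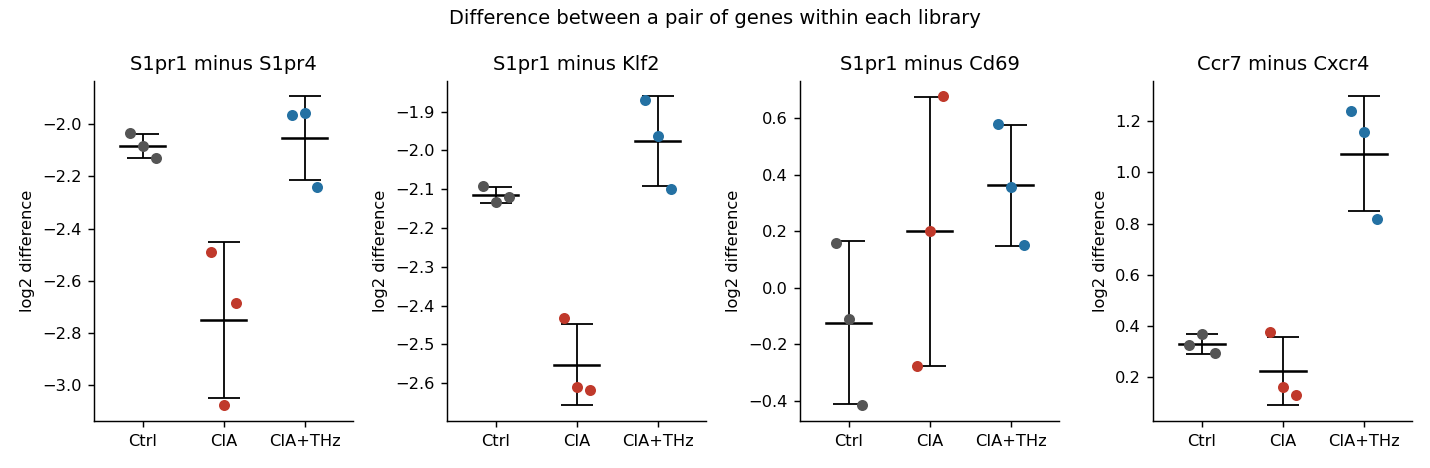
Log2 difference between a pair of genes within each library (vertical axis, not from 0) by group, with points for libraries, bars for means and whiskers for 1 SD. S1pr1 relative to S1pr4 and to Klf2 is lowest in the 3 CIA libraries, Ccr7 relative to Cxcr4 is highest in the 3 CIA+THz libraries, and S1pr1 relative to Cd69 overlaps.

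Other genes of lymphocyte trafficking comprised 41 genes, of which 33 were tested. Foxo1, a transcription factor upstream of Klf2, was at 20.7 ± 0.0969 rescaled FPKM in Ctrl and 19.5 ± 3.68 in CIA, and differed by 0.17 on the log2 scale between CIA+THz and CIA (SE 0.16). It did not meet the criterion in any pair. In CIA against Ctrl, 5 of 33 genes were higher and 2 lower at an unadjusted p under 0.05, beside 8.85% and 8.45% of all genes, and 1 in each direction met the criterion. Ccr9, the receptor of gut and thymus homing, was lower (-1.33, SE 0.35, adjusted p 0.150 by limma), with 2.39, 2.96 and 3.99 rescaled FPKM in Ctrl and 1.48, 0.815 and 1.26 in CIA. Cxcr6, a receptor of effector and tissue T cells, was higher (1.05, SE 0.42, adjusted p 0.265 by limma). The groups did not overlap for Ccr9, nor for Cxcr6, which was at 0.607, 0.520 and 1.17 in Ctrl and 1.43, 1.39 and 2.10 in CIA.

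In CIA+THz against CIA, 2 of the 33 were higher and 4 lower at an unadjusted p under 0.05, beside 5.89% and 7.33% of all genes, and only Plpp3, a phosphatase that degrades S1P, met the criterion (1.11, SE 0.34, adjusted p 0.269 by limma). Its levels were 0.918, 1.16 and 1.82 rescaled FPKM in CIA and 2.35, 3.79 and 2.52 in CIA+THz, without overlap. In CIA+THz against Ctrl, 3 were higher and 4 lower at an unadjusted p under 0.05, beside 8.39% and 9.69% of all genes. Spns2, the S1P exporter of endothelial cells, was higher (0.90, SE 0.22, adjusted p 0.137 by limma), at 2.86, 3.46 and 3.01 in Ctrl and 4.77, 5.72 and 7.39 in CIA+THz. In CIA without irradiation Spns2 was at 5.09, 4.62 and 3.61, also wholly above Ctrl. S1pr3, another S1P receptor, was at 0.583, 0.551 and 0.450 in Ctrl and 0, 0.111 and 0.121 in CIA+THz, and was lower (-1.90, SE 0.52, adjusted p 0.145 by limma), and Ccr9 was lower (-0.87, SE 0.30, adjusted p 0.200 by limma). Cxcl9, a ligand of CXCR3, was listed at 0 in all 3 Ctrl libraries and at 0.266, 0.184 and 0.281 in CIA+THz, and also met the criterion (adjusted p 0.161 by limma). In CIA without irradiation, Cxcl9 was at 0.470, 0 and 0.350 and S1pr3 at 0.191, 0 and 0.568. The ligands Ccl19, Ccl21a, Cxcl13, Cxcl10 and Cxcl11, and Ccr8, Ackr4 and Sphk1, were under the filter. Across the 3 groups, 8 of the 33 genes had an unadjusted p under 0.05, beside 21.3% of all genes, and 0 an adjusted one, by limma.

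The genes whose pattern over the 9 libraries was nearest to a member's were taken by the root mean square (RMS) difference of centred log2 levels among 9747 genes at a mean of 1 rescaled FPKM or more. Nearest to S1pr1 was Tcf7, a transcription factor of naive and memory T cells, at an RMS difference of 0.0957, where S1pr1 itself varied by an RMS of 0.246, and Ifit1bl1 and Ppm1h came next. Ccr7 was nearest to Pias2 (0.0899), Cxcr5 to Sp2 (0.0847) and Cxcr4 to Rgs14 (0.0896). The libraries share their scaling, and these values are a description.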

How the data were processed

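Blood RNA was sequenced in 9 libraries, grouped by the sample labels. The authors deposited FPKM per gene symbol; the submitters' processing notes name bcl2fastq 2.0, HISAT2, StringTie, DESeq2 and mm10, and annotation, strand and filters are not given in the sources used here. Columns were rescaled by median-of-ratios factors, from the 10312 genes that no library lists at 0. The 12366 genes with a mean of at least 0.1 were tested on log2(rescaled FPKM + 0.1), which understates changes near 0, with limma 3.58.1 (R 4.3.3, trend, Benjamini-Hochberg adjustment), each pair on its 6 libraries. The script was tested on simulated data. The members and lists were chosen with earlier results of these data known. Named beside the members were Foxo1 and trafficking genes past the criterion in any pair. Positions are GENCODE M21 (GRCm38, which is mm10), matched by symbol. Alternatives were the deposited FPKM without rescaling, another pseudocount (1), other filters, all libraries in a fit, a replicate block and leaving out each library; those on relative levels were chosen after seeing the data. Some genes, Trac among them, were not analysed here, and 1 gene that was to be named whatever its values is not reported here.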

Additional observations from a re-analysis of the deposited data

How the results depend on the processing

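The count of members past the criterion rested on single libraries, the threshold, the scaling, the pseudocount and the filter. With a pseudocount of 1, or with only genes at a mean of at least 1, it was 4 across the 3 groups, without Cxcl12. With the Benjamini-Hochberg adjustment it was 0 across the 3 groups and 0 in CIA+THz against CIA. With FPKM as deposited it was 7 across the 3 groups, 3 of them also after adjustment (Ccr7, S1pr1 and Cxcr5), 2 in CIA+THz against CIA and 2 in CIA+THz against Ctrl. Leaving out 1 library gave 3 to 6 members across the 3 groups, and 0 to 1 in each pair of groups. Cxcl12 was lost in CIA+THz against CIA without CIA replicate 1 or 2 or CIA+THz replicate 1 or 2, and met the criterion in CIA against Ctrl without CIA replicate 3 (-1.73). Cd69 met it there without CIA replicate 1, and Cxcr5 met it in CIA+THz against Ctrl without Ctrl replicate 3 (0.73) or CIA+THz replicate 1. The replicate numbers do not pair the libraries (r between -0.05 and 0.03 over 9 pairs of libraries with the same number). In 2 of these 9 pairs the first library correlated best with the one of its own number. The replicate block gave 1 member, Cxcl12, for CIA against Ctrl and 0 between CIA+THz and CIA. With that block, S1pr1 in CIA against Ctrl had an adjusted p of 0.332 by limma, with the unadjusted p above 0.05.

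Directions turned for members near 0. With FPKM as deposited, S1pr4 (0.12), Cxcr3 (0.21) and Klf2 (0.24) turned in CIA+THz against CIA, and Cxcr3 (0.17) and Cd69 (0.045) in CIA+THz against Ctrl. Leaving out 1 library turned Ccr7 (-0.043 to 0.083) and Cxcr3 (-0.52 to 0.27) in CIA against Ctrl, S1pr4 (-0.27 to 0.030), Cxcr3 (-0.25 to 0.11) and Klf2 (-0.080 to 0.016) in CIA+THz against CIA, and Cxcr3 (-0.58 to 0.21) in CIA+THz against Ctrl. Alternatives of the relative levels covered Ccr7, S1pr1, Cxcr4 and Klf2 with the T cell list and Cxcr5 with the B cell list. They were run for CIA against Ctrl and CIA+THz against CIA only. All 80 moved the difference by less than the larger SD of the groups compared. Those with FPKM as deposited could hardly move it, because the factor per library cancels. The other relative levels were not checked in this way.

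Over all genes, the 561 genes of CIA+THz against CIA became 1192 with FPKM as deposited, 283 with a pseudocount of 1 and 0 with the adjustment (1634 at an unadjusted p under 0.05). The 975 genes of CIA+THz against Ctrl became 1716 with FPKM as deposited, 13 with the adjustment and 1487 without Ctrl replicate 3. The adjustment left 19 of 1118 genes in CIA against Ctrl and 313 of 2629 across the 3 groups. With all 9 libraries in 1 fit the adjusted counts were 474 for CIA against Ctrl, 2 for CIA+THz against CIA and 104 for CIA+THz against Ctrl. FPKM holds no depth, so counting error behind Cxcl12 and Cxcr3 is unknown.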
